A study of Vuilleminia comedens with 3 samples.

Results

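Mitochondrial carriers and protein import components were examined across 3 libraries of the wood-decay fungus Vuilleminia comedens. Transcripts were chosen by the product name of their best match in another species: names containing mitochondrial carrier, mitochondrial import, mitochondrial inner membrane, ADP/ATP, mitochondrial processing peptidase or porin were taken and aquaporins were left out. This gave 128 transcripts from 86 assembler genes, of 22605 annotated and 81106 assembled transcripts. No measured level entered the rule, although it was set with earlier results of these data known. V. comedens is a basidiomycete that grows as a crust on dead branches of broadleaved trees and breaks down their wood. Autoclaved beech blocks of 2 cm3 lay for about 8 weeks on malt extract plates (0.5%) to be colonised by strain VcWVJH1, and pairs of blocks carrying that same strain were held together at 20 °C for 7 days, kept in place by an elastic band for the first 3 days. RNA was taken from the wood nearest the contact face, and poly(A) RNA was sequenced as stranded paired reads. The labels describe the 3 libraries as separate biological replicates of 1 group, so there was no second condition and no contrast to test.

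The mitochondrial carrier family consists of inner membrane proteins that exchange metabolites, nucleotides and cofactors between the cytosol and the matrix. Nearly all mitochondrial proteins, the carriers included, are encoded in the nucleus and imported. In yeast and Neurospora, receptors and a channel of the outer membrane (the TOM complex) take them up, small chaperones escort carriers across the space between the membranes, and the TIM22 and TIM23 complexes insert them into, or pass them through, the inner membrane, after which the processing peptidase removes the targeting sequence of matrix proteins. In a respiring wood-decay fungus this machinery links the breakdown of sugars to the respiratory chain.

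The transcript counts totalled 111754018, 68151997 and 64236917 for libraries A, B and C. The first 2 transcripts, neither of them a carrier or import transcript, took 70.1%, 67.0% and 69.3% of these totals. Library A was thus the deepest, and 3 counts, the upper limit that a count of 0 allows, corresponded to 0.0268 CPM (counts per 1000000 counts) there, against 0.0440 CPM for library B and 0.0467 CPM for library C. Runs of 3 values below follow the order A, B, C. Levels are given as RPKM, reads per kilobase of transcript per 1000000 counts, and errors are the SD over the 3 libraries.

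The names bore out the title only in part. Of the 128 transcripts, 96 were named mitochondrial carrier or mitochondrial carrier protein, with no substrate in the name, so the metabolite that each one moves is not known from the annotation. A further 12 were import components, 10 were named mitochondrial inner membrane protein and 2 were beta subunits of the processing peptidase. The 2 matches to ADP/ATP were both named ADP/ATP carrier receptor, a name used in Neurospora for the outer membrane import receptor Tom70, and neither was named as a carrier. The 6 names containing porin were 4 nucleoporins or nucleoporin-interacting proteins of the nuclear pore and 2 cephalosporin esterases, none of them mitochondrial. No name contained prohibitin, and no name was that of the mitochondrial porin, the channel of the outer membrane. The best match lay in Trametes versicolor for 81 transcripts, in Punctularia strigosozonata for 45 and in Moniliophthora roreri for 2, all of them basidiomycetes.

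Carriers made up most of the signal. The summed level of the 96 carriers was 465, 457 and 501 RPKM in the order A, B, C (474 ± 23.5, n = 3), which was 79.6% ± 1.83 of the sum over all 128 transcripts. That whole sum was 592, 581 and 613 RPKM (595 ± 16.1, n = 3), or 0.382% ± 0.0119 of the summed RPKM of all annotated transcripts outside the first 2. The reads of the 128 transcripts made up 0.263% of library A outside the first 2 transcripts (Clopper-Pearson 95% interval, 0.262 to 0.265), 0.238% of library B (0.236 to 0.240) and 0.257% of library C (0.254 to 0.259). The libraries thus differed little in the whole sum.

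A few transcripts carried this sum. Of the 128, 1 reached 100 RPKM on average, 11 reached 10 RPKM, 33 lay between 1 and 10 RPKM and 84 lay below 1 RPKM, over a range from 0.0245 to 146 RPKM. The share at 10 RPKM or more was 8.59%, against 10.8% of annotated transcripts, and that at 1 RPKM or more was 34.4%, against 37.9%. The highest transcript held 24.5% ± 1.61 of the summed level, the 3 highest 42.1% ± 0.621, and the 10 highest 75.0% ± 1.61 (SD, n = 3). The median member was low, at 0.503, 0.323 and 0.414 RPKM for A, B and C, against 0.589, 0.459 and 0.454 RPKM for all annotated transcripts. The median was below that of annotated transcripts in each library, with a ratio of 0.824 ± 0.108 (SD, n = 3). For assembler genes in place of transcripts the ratio was 1.09 ± 0.255 (SD, n = 3), so the order was not resolved there.

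**Figure D1:**
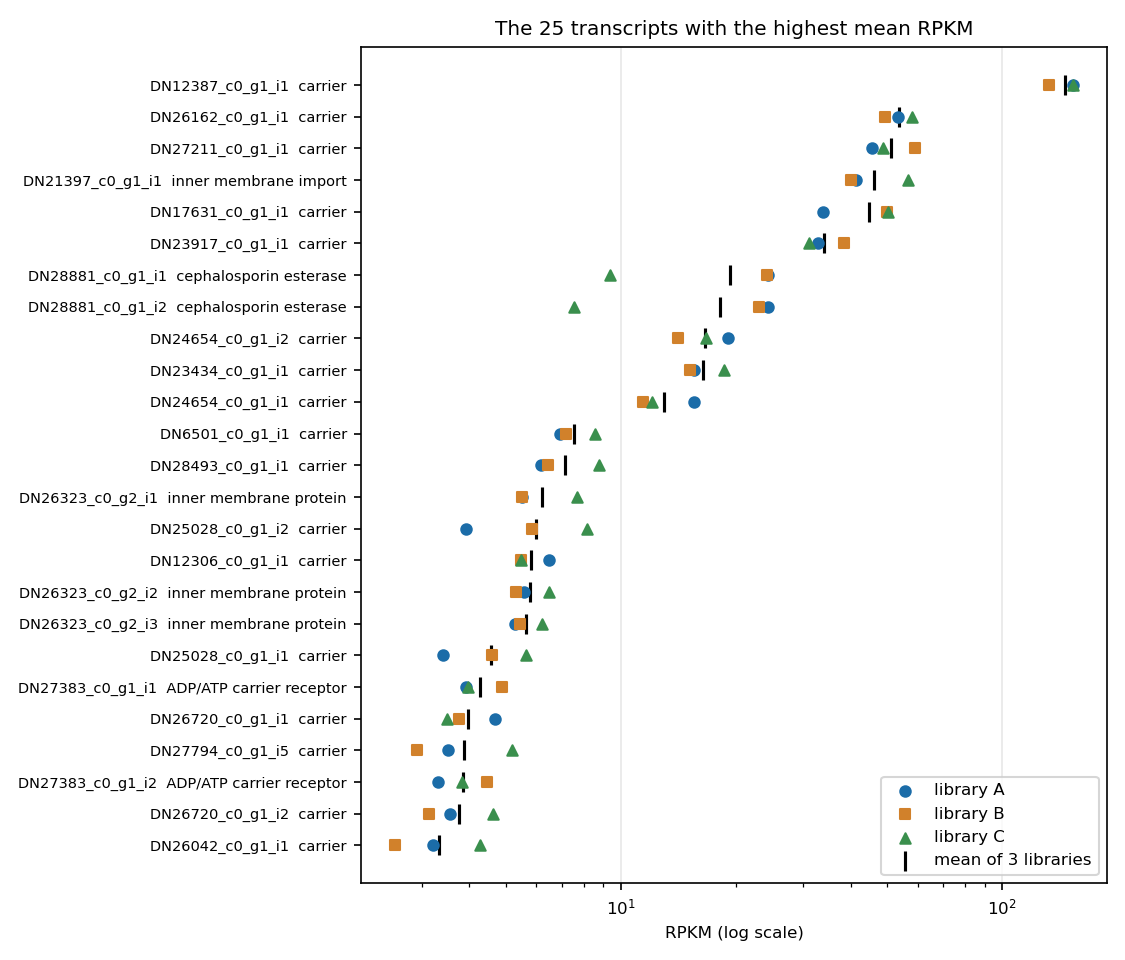
RPKM (log scale) of the 25 transcripts with the highest mean, with one symbol for each library and a tick at the mean. The leading carrier stands apart at 132 to 153 RPKM, and the cephalosporin esterase pair is the one whose library C values lie far below the others.

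Among the carriers, DN12387_c0_g1_i1 (identifiers are given without the prefix TRINITY_) was the highest. This transcript of 1198 bp, matched to a T. versicolor carrier, had 20531, 10800 and 11776 reads in libraries A, B and C. Its level was 153, 132 and 153 RPKM (146 ± 12.1, n = 3). It alone held 30.8% ± 2.01 of the summed carrier level and ranked 170, 214 and 174 among annotated transcripts. It exceeded the second carrier 2.73 ± 0.128 times, and did so in 3 of 3 libraries.

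The next carriers lay close together. DN26162_c0_g1_i1 (PUNSTDRAFT_119915) had 53.3, 49.3 and 58.0 RPKM. DN27211_c0_g1_i1, matched to T. versicolor, had 45.6, 59.1 and 48.7 RPKM. Their order held in 2 of 3 libraries, so these neighbours did not differ beyond their spread. Next to them stood DN17631_c0_g1_i1 and DN23917_c0_g1_i1, transcripts of 863 and 1146 bp from different assembler genes that matched the same P. strigosozonata entry, PUNSTDRAFT_90865. All 3 transcripts on that entry, those 2 among them, summed to 66.7, 88.7 and 81.4 RPKM (78.9 ± 11.2, n = 3). By this sum the entry was second among the carriers. Whether the transcripts are parts of 1 gene or copies cannot be told apart from these data. For parts of 1 gene a sum of RPKM overstates the level, so the second place is not settled.

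Further carriers formed a middle range. The 2 isoforms of DN24654_c0_g1 (PUNSTDRAFT_83083) summed to 34.7, 25.5 and 28.8 RPKM, with library A the highest. DN23434_c0_g1_i1 (PUNSTDRAFT_80123) had 15.5, 15.1 and 18.7 RPKM. The 9 transcripts on the T. versicolor entry led by DN25028_c0_g1_i2 summed to 9.18, 12.1 and 16.0 RPKM. The last of these carriers was lowest in library A and highest in library C, while the first was highest in A, so the middle range had no common order of libraries. These carriers, those on PUNSTDRAFT_90865 and the entries named with them below were picked after their values were seen.

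Taken by matched entry, the 96 carrier transcripts fell on 15 P. strigosozonata and 21 T. versicolor entries, which is a count of distinct matches and not of genes in V. comedens. Of the P. strigosozonata entries, 14 of 15 had at least 100 reads in all, 12 reached 1 RPKM and 4 reached 10 RPKM, over a range of 0.218 to 78.9 RPKM with a median of 7.12 RPKM. Of the T. versicolor entries, 13 of 21 had at least 100 reads, 12 reached 1 RPKM and 3 reached 10 RPKM, over a range of 0.0445 to 147 RPKM with a median of 1.27 RPKM. The highest carrier and the lowest ones therefore both lay on T. versicolor entries. Several P. strigosozonata entries sat within a narrow range: PUNSTDRAFT_131107 had 7.15, 6.41 and 10.2 RPKM. PUNSTDRAFT_110223 had 6.94, 7.16 and 8.55 RPKM, and PUNSTDRAFT_79777 had 6.61, 7.37 and 8.62 RPKM. The values of these 3 entries overlapped, so their order was not resolved by these libraries.

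**Figure D2:**
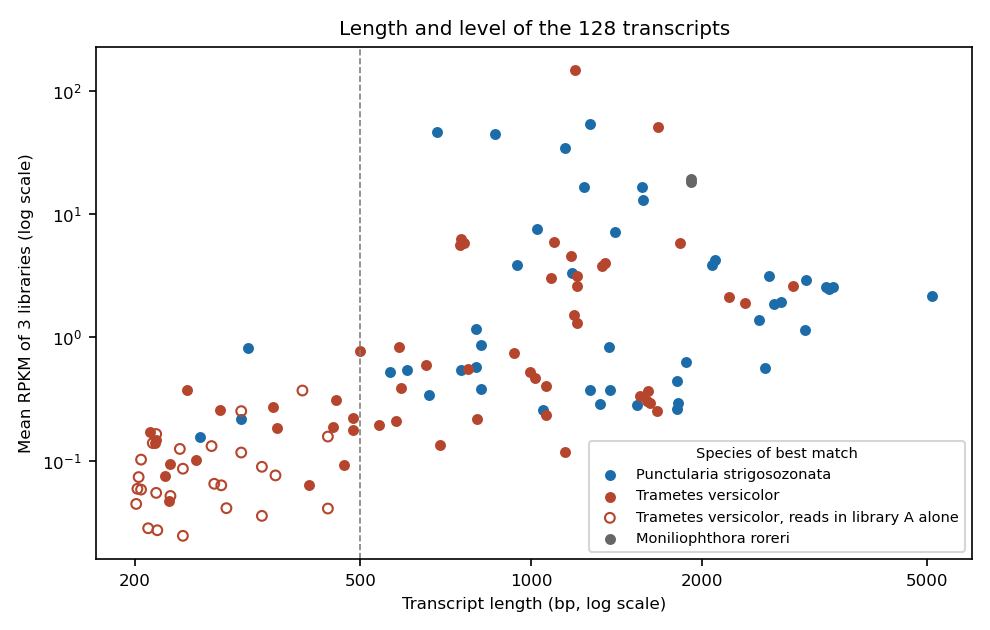
Transcript length in bp against mean RPKM over 3 libraries (both axes log scale) for the 128 transcripts, coloured by the species of the best match, with open circles for transcripts that had reads in library A alone. All 26 open circles are T. versicolor matches shorter than 500 bp, left of the dashed line, and the transcripts above 10 RPKM are all longer than 500 bp.

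Length and matched species went together, and the median level differed between the matched species. It was 1.12, 1.34 and 1.38 RPKM for P. strigosozonata matches and 0.373, 0.0676 and 0.174 RPKM for T. versicolor matches. Their shares of the summed level were closer, at 48.2% ± 2.79 and 45.4% ± 1.39 (SD, n = 3). Transcripts matched to P. strigosozonata had a median length of 1373 bp and 3 of 45 were under 500 bp, whereas those matched to T. versicolor had a median of 467 bp and 44 of 81 were under 500 bp. The 34 carriers under 500 bp summed to 9.92, 2.64 and 2.38 RPKM. The 62 carriers of 500 bp or more summed to 455, 454 and 499 RPKM. The carrier sum was therefore nearly the same without the short transcripts.

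Many of the short transcripts had reads in library A alone. This held for 26 of the 128 transcripts (20.3%), of 201 to 438 bp and with 2 to 49 reads each. All 26 were T. versicolor matches: 20 carriers, 3 inner membrane import components and 1 each of Tom22, processing peptidase and NIC96. Of all assembled transcripts 9.56% and of annotated ones 17.6% had reads in library A alone, of T. versicolor matches 33.4% (26 of 81 here, 32.1%), and of T. versicolor matches under 500 bp 48.0% (26 of 44 here, 59.1%). It was 0.671% of P. strigosozonata matches (0 of 45 here) and 3.80% of those under 500 bp (0 of 3 here). With at least 20 reads, library A held over 90% of the summed CPM in 416 of 5064 T. versicolor and 5 of 8876 P. strigosozonata matches. The share among carrier and import transcripts was near that of all annotated and all T. versicolor transcripts. Reads in library B alone were found for 0 and in library C alone for 1 of the 128. Library A had the greatest depth. In the same libraries the share under 500 bp differed between T. versicolor and P. strigosozonata matches. These 2 sets of short transcripts differed in read number too. Under 10 reads in all were found for 4252 of 7752 T. versicolor and 270 of 1631 P. strigosozonata matches. The part of depth, length or matched species in this pattern was not tested.

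The import components formed a much smaller group than the carriers. The 10 transcripts for import through the inner membrane summed to 45.6, 43.7 and 61.2 RPKM (50.2 ± 9.62, n = 3), between 0.0957 and 0.122 times the carrier sum. Nearly all of this came from DN21397_c0_g1_i1, a transcript of 682 bp named as a subunit of the inner membrane import translocase (PUNSTDRAFT_111733) with no subunit number. It had 3158, 1863 and 2481 reads and 41.4, 40.1 and 56.6 RPKM (46.0 ± 9.19, n = 3), with library C above libraries A and B. The 6 isoforms of DN25060_c0_g1, named TIM22 (PUNSTDRAFT_136414), the channel that inserts carriers into the inner membrane in yeast, summed to 3.39, 3.61 and 4.58 RPKM (3.86 ± 0.634, n = 3). The highest of them, DN25060_c0_g1_i6, had 68, 73 and 71 reads, and DN25060_c0_g1_i1 had 64, 44 and 58 reads. The TIM22 gene was thus detected in each library, at a level between the medians of the carrier entries matched to T. versicolor and to P. strigosozonata. Isoforms of 1 assembler gene share sequence, so the split of reads between them depends on the authors' counting rule.

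Other import components had few reads, nearly all of them in library A. A second transcript named TIM22, of 240 bp and matched to T. versicolor, had 10, 0 and 0 reads. The 2 transcripts named tim10, a small chaperone that in yeast escorts carriers between the membranes, had 14, 0 and 0 reads together. The 2 transcripts named Tom22, a receptor subunit of the TOM complex, had 29, 0 and 3 reads and were 215 and 282 bp long. The 2 transcripts of the processing peptidase beta subunit had 16, 1 and 0 reads and were 226 and 308 bp long. These transcripts were all T. versicolor matches under 500 bp, of which 48.0% in the whole assembly had reads in library A alone. Their reads are therefore no firm measure of the level of these genes. A count of 0 allows up to 0.0440 CPM for library B and 0.0467 CPM for library C. These data do not show whether V. comedens has longer transcripts of these genes that matched other names.

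The ADP/ATP carrier receptor had more reads than Tom22, the other outer membrane import receptor among the 128 transcripts. In RPKM it was also higher in 3 of 3 libraries. The short Tom22 transcripts are no firm measure of that gene, so the order of the 2 genes is not settled. The 2 isoforms of the ADP/ATP carrier receptor, DN27383_c0_g1_i1 and DN27383_c0_g1_i2 (PUNSTDRAFT_47458), had 925, 703 and 539 reads and 774, 632 and 514 reads. Summed, they reached 7.24, 9.33 and 7.81 RPKM (8.13 ± 1.08, n = 3). The longer isoform held 54.4%, 52.7% and 51.2% of the reads of both, so neither isoform dominated in any library.

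The 10 transcripts named mitochondrial inner membrane protein, a name that gives no function, matched 1 T. versicolor entry and came from 6 assembler genes. They summed to 18.9, 17.9 and 21.6 RPKM (19.5 ± 1.91, n = 3). The 3 highest were isoforms of DN26323_c0_g2, with means of 6.22 ± 1.27, 5.78 ± 0.608 and 5.63 ± 0.495 RPKM (SD, n = 3). Inner membrane import lay above this group in 3 of 3 libraries. With 3 libraries the smallest two-sided p of an exact sign-flip test is 0.25, so such an order cannot pass 0.05.

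The names containing porin stood out for the spread of their sum. They summed to 53.8, 53.6 and 21.2 RPKM. Most of it was the cephalosporin esterase DN28881_c0_g1, an enzyme name for cleavage of an ester in the antibiotic cephalosporin, matched to M. roreri. Its isoform DN28881_c0_g1_i1 had 5199, 3148 and 1150 reads and DN28881_c0_g1_i2 had 5185, 2992 and 923 reads, and together they had 48.6, 47.1 and 16.9 RPKM. Libraries A and B lay close together and library C far below. The nucleoporin-interacting protein NIC96, in yeast a scaffold of the nuclear pore, had 805, 646 and 376 reads on DN27269_c0_g1_i2 (2.59 ± 0.632 RPKM, n = 3). Without these 6 names, the other 122 transcripts summed to 538, 528 and 592 RPKM, so library C was then further above A and B.

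**Figure D3:**
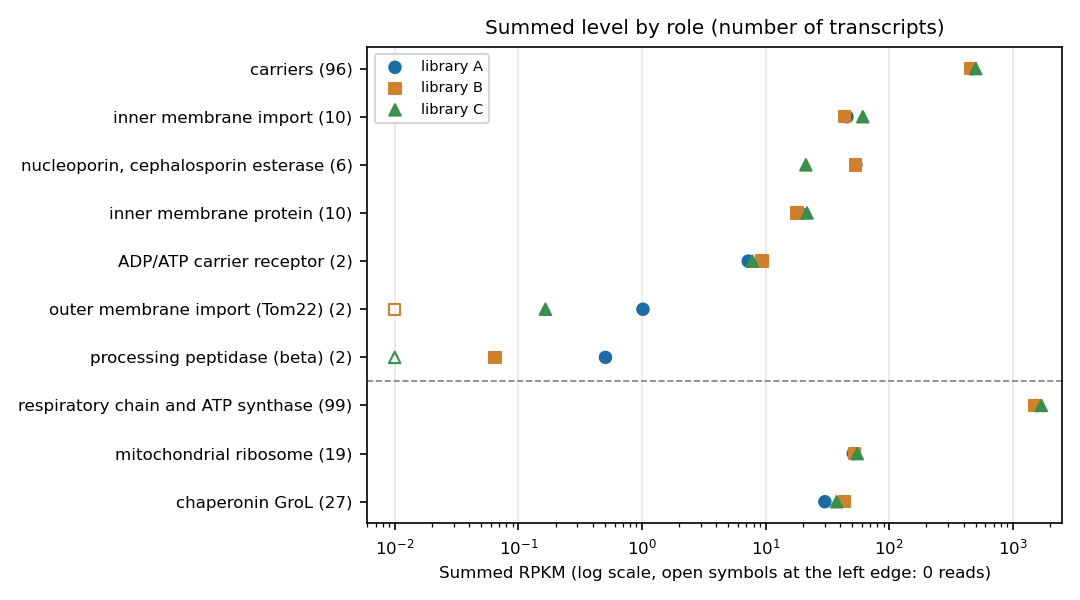
Summed RPKM (log scale) of each group of transcripts by role, with its number of transcripts in brackets and one symbol per library (open at the left edge for 0 reads), above the dashed line for the carrier and import groups and below it for comparison lists. The carriers at 457 to 501 RPKM lie below the respiratory chain at 1502 to 1700 RPKM and above every other group shown.

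Other mitochondrial lists gave the setting. The 99 transcripts named for the respiratory chain or ATP synthase, 8 of them vacuolar by name, summed to 1520, 1502 and 1700 RPKM (1574 ± 110, n = 3). The carrier and import sum was 0.379 ± 0.0161 times that (SD, n = 3), lower in 3 of 3 libraries. By the median transcript the order was the reverse. The carrier and import median was 1.27, 2.43 and 2.63 times that of the respiratory list, higher in 3 of 3 libraries. The lower sum therefore does not hold for the typical transcript. The respiratory list was led by DN39485_c0_g1_i1 (PUNSTDRAFT_96133), named as the D subunit of NADH dehydrogenase I, with 348, 248 and 290 RPKM. Second came DN19679_c0_g1_i1 (PUNSTDRAFT_104527), the beta subunit of the catalytic part of ATP synthase, with 119, 155 and 132 RPKM. The leading carrier thus lay below the first in each library and above the second in libraries A and C. The 19 transcripts of the mitochondrial ribosome summed to 51.2, 52.4 and 55.2 RPKM (52.9 ± 2.03, n = 3). Its highest members, DN21857_c0_g1_i2 and DN19363_c0_g1_i1, had 9.03 ± 0.825 and 8.47 ± 0.199 RPKM (SD, n = 3). The sum for inner membrane import was thus of the same order as that of these 19 transcripts. Of its 50.2 RPKM, 46.0 RPKM came from DN21397_c0_g1_i1. The ribosome list was drawn from names and may lack further proteins of the mitochondrial ribosome. Sum and median differed in direction for this list too. The carrier and import sum was 11.3 ± 0.267 times that of the ribosome list (SD, n = 3). The carrier and import median was 0.261 ± 0.0562 times that of the ribosome list (SD, n = 3).

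The chaperone list held 100 transcripts, of which 27 were named chaperonin GroL, the folding chamber of the matrix, and 73 GroES-like protein, a name that also covers the fold of alcohol dehydrogenases. The chaperonin GroL transcripts summed to 30.2, 43.7 and 37.6 RPKM. The highest were DN30460_c0_g1_i9 with 238, 271 and 284 reads and DN30460_c0_g1_i7 with 154, 234 and 192 reads, and both were lowest in CPM in library A. The GroES-like proteins were led by DN23975_c0_g1_i1 at 83.5 ± 10.4 RPKM and DN27815_c0_g2_i1 at 27.5 ± 5.22 RPKM (SD, n = 3).

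Differences between the replicate blocks were described for the 74 of 128 transcripts that had at least 10 reads in every library. The highest library exceeded the lowest more than 2-fold in 19 of these 74 (25.7%), against 24.0% of all transcripts that passed the same minimum and 17.5% of annotated ones. The count was 13 of 56 for carriers, 2 of 6 for inner membrane import, 1 of 5 for the inner membrane protein, 0 of 2 for the ADP/ATP carrier receptor and 3 of 5 for the names containing porin. By matched species it was 8 of 40 for P. strigosozonata (background 16.0%) and 9 of 32 for T. versicolor (background 19.3%). The share was near the background of all transcripts, but did not keep the same side of it. Each library bore on the count: 5 transcripts passed 2-fold without library C (background 10.1%), 8 without library B (background 11.2%) and 13 without library A (background 13.5%), which is 6.76%, 10.8% and 17.6% of the 74. With reads summed by assembler gene, 5 of 40 genes (12.5%) passed 2-fold, against 23.9% of all assembler genes. The share also went with depth: with under 500 reads in all, 15 of 33 passed 2-fold (background 30.6%), and with 500 or more, 4 of 41 did (background 12.4%). With at least 100 reads in every library the count was also 4, of 42 (background 9.98%), and with at least 1 read it was 32 of 87 (36.8%), below the background of 47.8%. These 4 were both cephalosporin esterase isoforms and the carriers DN25028_c0_g1_i2, with 481, 436 and 575 reads, and DN23325_c0_g1_i1, with 271, 173 and 318 reads. Both carriers were highest in library C, and they were named after their values were seen.

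**Figure D4:**
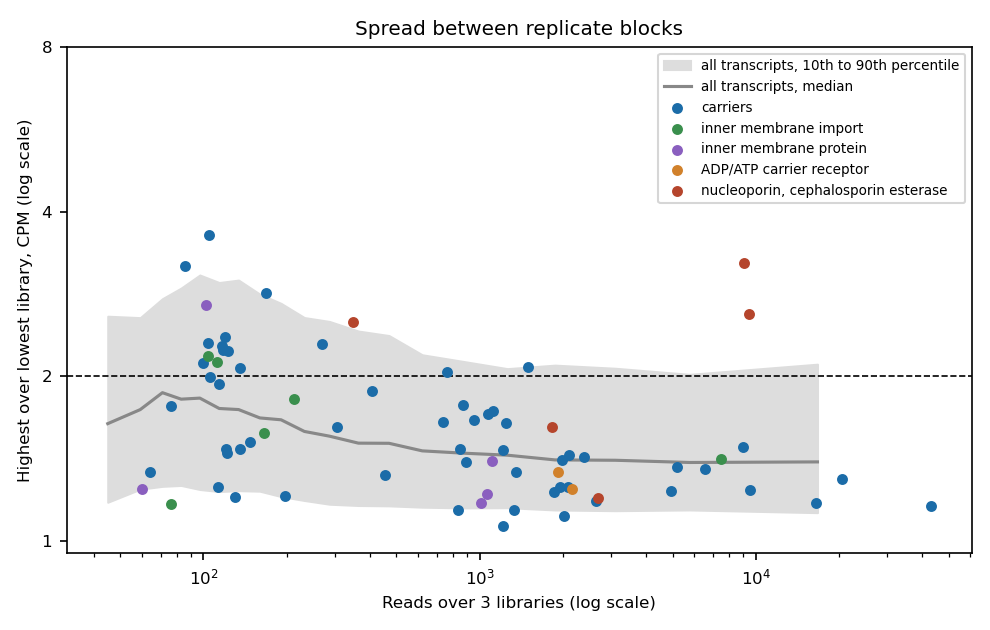
Ratio of the highest to the lowest library in CPM (log scale) against the reads over 3 libraries (log scale) for the 74 transcripts that reached 10 reads in each library; colours mark the role, the dashed line 2-fold, and the grey line and band the median and the 10th to 90th percentiles of all transcripts. Ratios above 2-fold lie mostly at low read numbers, where 15 of 33 transcripts under 500 reads passed it.

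Among transcripts with at least 100 reads in all, the carrier DN27006_c0_g1_i3 had the largest ratio, with 52, 12 and 41 reads, at 3.62-fold. It was followed by DN28881_c0_g1_i2 at 3.23-fold and by the carrier DN27794_c0_g1_i4, with 76, 25 and 67 reads, at 2.84-fold. The inner membrane protein DN45212_c0_g1_i1 had 61, 28 and 13 reads and a ratio of 2.70, and DN28881_c0_g1_i1 had one of 2.60. Apart from the cephalosporin esterase, these large ratios rested on small counts. Other isoforms of DN27006_c0_g1 offset the first: the 4 isoforms together had 223, 114 and 132 reads, a ratio of 1.23 in CPM, and 2.33, 2.13 and 2.21 RPKM. The assembler gene DN27794_c0_g1 had isoforms matched to P. strigosozonata and others matched to T. versicolor, so the species of the match did not separate assembler genes.

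The 5 steadiest transcripts with at least 100 reads were carriers, as were 53 of all 69 with that many reads. The 3 isoforms of DN25737_c0_g1 (PUNSTDRAFT_119421) had ratios of 1.07, 1.11 and 1.14 and summed to 6.28, 6.61 and 6.25 RPKM. DN28253_c0_g2_i3 (PUNSTDRAFT_53606) had 651, 354 and 328 reads and a ratio of 1.14. The leading carrier DN12387_c0_g1_i1 came next at 1.16. The median ratio over the 74 transcripts was 1.47, against 1.56 over all transcripts and 1.48 over annotated ones. The biological coefficient of variation, edgeR's estimate of the spread between replicates beyond counting error, had a median of 0.268 over the 74 transcripts and of 0.273 over all transcripts tested. By the median ratio the carrier and import transcripts varied between blocks about as much as annotated transcripts did. By the share over 2-fold they varied more, with 25.7% against 17.5% of annotated transcripts. With reads summed by assembler gene that share was 12.5%, against 23.9% of all assembler genes, so the measures did not give 1 answer. With 3 libraries edgeR draws each transcript's coefficient towards a shared value, and the 74 lay within 0.234 to 0.392. The nearness of the medians of that coefficient therefore says little about the transcripts' own spread.

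Library C was often the highest library. It had the highest CPM in 39 of the 74 transcripts (52.7%), library A in 20 and library B in 15. Among annotated transcripts with the same minimum of reads library C was the highest in 27.3%, and among all transcripts in 31.4%. The count was 31 of 56 for carriers. Among the other mitochondrial lists, it was 12 of 40 for the respiratory chain and ATP synthase and 4 of 11 for the mitochondrial ribosome, although both lists had their highest summed RPKM in library C too. The difference between lists was not tested. The median log2 ratio of library C to library A was 0.19 for the 74 transcripts and -0.05 for annotated ones, and that of library C to library B was 0.24 and -0.13. With TMM scaling library C was the highest in 40 of 74 (54.1%), against 31.2% of annotated transcripts, and over assembler genes, scaled to library totals, in 19 of 40 (47.5%), against 31.4%. The transcripts share the same 3 libraries, so this describes 1 library and is no difference between conditions.

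**Figure D5:**
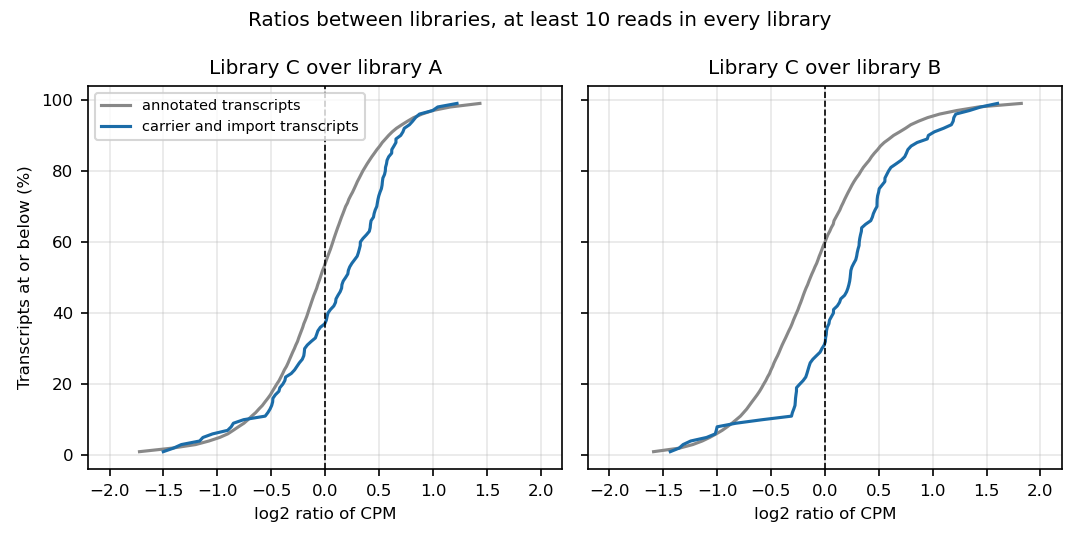
Cumulative share of transcripts (percent) by log2 ratio of CPM, for library C over A on the left and C over B on the right, among transcripts that reached 10 reads in each library. The blue curve of the 74 carrier and import transcripts lies right of the grey curve of annotated transcripts over most of its range, with medians of 0.19 against -0.05 and 0.24 against -0.13.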

How the data were processed

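Each of 3 libraries of 1 group was given as a column of whole-number read counts in a table the authors deposited, which also held transcript lengths; these counts had not been normalised. The columns were unnamed, so they are called A, B and C and tied to no replicate number. The tools named, per the submitters' processing notes, were Bowtie2 2.2.6, cutadapt 1.2.1 and SAMtools 0.1.19, with no role stated. Not given in the sources used here were the assembler, the counting rule, the use of strand and the annotation search. Product names come from matched entries of other species and are not measured functions. Repeated annotation lines were removed, which left 22605 transcripts.

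CPM used the library total and RPKM also the length. The spread was estimated with edgeR 4.0.16 (TMM scaling, intercept alone) where each library had at least 10 reads, and the procedure was tested on simulated data. Intervals are exact (Clopper-Pearson) at 95%; these intervals, like the limit of 3 counts, cover counting error alone. Transcripts named were, per role, the 3 highest by mean RPKM with at least 300 bp and 100 reads, the 5 largest and 5 smallest ratios between libraries with at least 100 reads, and the 2 highest of each comparison list. Members, lists and tests were chosen with earlier results of these data known. Alternatives covered length scaling, read and length minimums, TMM and DESeq2 1.42.0 scaling, sums by assembler gene, the matched species and each library left out.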

Additional observations from a re-analysis of the deposited data

How the results depend on the processing

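No paired analysis was possible because the libraries form 1 group. The share of carrier and import transcripts in the summed level of annotated ones (0.382%) became 0.352% with no division by length, 0.435% with at least 500 bp, 0.435% by assembler gene and 0.253% for P. strigosozonata matches. The carriers' share (79.6%) moved by less than its SD under every alternative but those named in the next sentence, and the leading transcript's share (24.5%) became 22.2% with no division by length and 22.6% by assembler gene. With alternatives chosen after seeing the data, leaving out the 6 names containing porin gave 0.355%, 85.9% and 26.5% for these 3 shares, and leaving out the leading transcript gave 0.288% and 73.0% for the first and the carriers' share. The ratio of medians (0.824) became 0.973 with no division by length, 0.945 with at least 100 reads and 1.09 by assembler gene. The count over 2-fold (19) became 4 with at least 100 reads in every library, where 42 transcripts were counted and the background was 9.98%. It became 32 of 87 with at least 1 read (background 47.8%), 8 of 40 for P. strigosozonata matches (background 16.0%) and 5 of 40 by assembler gene (background 23.9%). The median coefficient of variation (0.268, background 0.273) became 0.231 with at least 100 reads in every library (background 0.227). With at least 1 read it became 0.309 (background 0.398), and for P. strigosozonata matches 0.243 (background 0.245). By assembler gene it was 0.254 (background 0.282). Leaving out each library gave 0.375% to 0.387%, 78.6% to 80.1% and 23.9% to 25.4% for the 3 shares, 0.779 to 0.884 for the ratio of medians, 5 to 13 for the count and 0.254 to 0.292 for the coefficient of variation. The leading transcript's share has no value among P. strigosozonata matches, since its own match is in T. versicolor. The minimum of reads removes transcripts by construction; the cause of the other changes was not tested. The short transcripts had few reads: of the 47 under 500 bp, 1 had at least 100 reads in all.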

Other observations

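Some mitochondrial proteins fell outside the choice by name, and their groups were picked after the annotation text had been seen. The inner membrane import subunit TIM44, which in yeast ties the matrix Hsp70 motor to the import channel, was spelled mitochondria import and was therefore missed. Its 2 transcripts (PUNSTDRAFT_145410) summed to 6.43, 5.90 and 7.52 RPKM, above the TIM22 gene in each. DN13438_c0_g1_i2, of 1554 bp, had 621, 459 and 562 reads, and DN13438_c0_g1_i1, of 411 bp, had 131, 44 and 50 reads. The mitochondrial tricarboxylate transporter, a citrate carrier in other fungi, had 3 transcripts on 1 entry (PUNSTDRAFT_122217) that summed to 5.87, 8.01 and 6.27 RPKM. Its highest, DN19342_c0_g2_i1 and DN19342_c0_g1_i1, had means of 2.84 ± 0.430 and 2.81 ± 0.758 RPKM (SD, n = 3). The 4 transcripts named mitochondrial NAD transporter, 220 to 308 bp long, had 3.62, 0.830 and 1.19 RPKM, with library A the highest.

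The 6 transcripts for mitochondrial fission, morphology and movement summed to 36.7, 42.9 and 49.1 RPKM. Most of this came from the fission 1 protein (PUNSTDRAFT_73253), which in yeast anchors the division machinery in the outer membrane. DN22156_c0_g1_i2 had 14.6, 14.6 and 23.4 RPKM, with library C the highest, and DN22156_c0_g1_i1 had 10.3, 15.2 and 15.1 RPKM, with library A the lowest.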
